A study of Mus musculus with 12 samples.

Results

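The clustered replication-dependent histone genes are the core histone genes whose symbols run H2ac, H2bc, H3c or H4c with a number. The rule was a match of the gene name in the deposited table to that pattern, and it found 61 of 38349 genes. There were 17 H2A, 19 H2B, 12 H3 and 13 H4 genes, with 47 on chromosome 13, 10 on chromosome 3, 3 on chromosome 11 and 1 on chromosome 6. The H2B genes include H2bc26, whose older symbol, Hist3h2bb-ps, names it a pseudogene. Whole lungs of wild-type mice were profiled by RNA sequencing in 4 groups of 3 libraries. Per the labels and the series title, the groups were injured lungs given tpMSC, injured lungs given MSC, injured lungs without cells (ALI, acute lung injury from hypoxia and the bacterial cell wall component LPS) and uninjured lungs (Control). The labels do not state what distinguishes tpMSC from MSC, nor the strain, age or doses. They also do not state whether replicates are separate animals, so a p-value measures only the spread between these libraries.

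Core histones H2A, H2B, H3 and H4 wrap DNA into nucleosomes, and their clustered genes are classically transcribed in S phase, when new DNA has to be packaged. Their mRNAs end in a conserved stem-loop bound by the protein SLBP in place of a poly(A) tail. Some of these genes can also yield a longer, polyadenylated mRNA that ends downstream of the stem-loop, mostly described in differentiated cells. The libraries were selected with oligo(dT) per the labels' protocols, so a tail-less mRNA is captured poorly and a level here does not measure the whole histone mRNA pool.

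The stem-loop was searched for in the annotated transcripts (GENCODE M21, GRCm38) on the transcript's own strand as GG, any 2 bases, CTTTT, any base, AG, any 2 bases and CC. It was found in 40 of the 61 members and in 49 of 55389 other genes (0.0885%). The 30-base windows of the changed members that hold a match, and of H2ac18, are printed here. Each line gives the window 5′ to 3′ on the strand of the gene, with the 16 bases of the stem-loop in capitals.
H2ac25, chr11:58955165-58955194, + strand: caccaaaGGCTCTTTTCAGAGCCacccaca
H2ac18, chr3:96246025-96246054, + strand: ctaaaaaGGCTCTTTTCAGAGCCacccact
H2bc8, chr13:23571836-23571865, + strand: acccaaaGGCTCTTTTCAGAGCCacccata
H2bc9, chr13:23542921-23542950, - strand: acccaaaGGCTCTTTTCAGAGCCactcaag
H3c14, chr3:96247320-96247349, + strand: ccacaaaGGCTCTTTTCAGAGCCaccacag
H3c15, chr3:96238478-96238507, - strand: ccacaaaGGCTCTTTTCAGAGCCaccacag
H4c8, chr13:23531451-23531480, + strand: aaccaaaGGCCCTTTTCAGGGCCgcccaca
All of these windows but that of H4c8 share the core found in 23 members, and H4c8 has the core found in 7. Only 6 distinct cores occurred among the 40 members. The search itself fixed most of the 16 bases, so it cannot show how much the element varies. Of the 21 members without a match, 14 have no annotated 3′ UTR, so the search had no place to find one there. H2bc4 and H2bc21 have an annotated 3′ UTR without these letters.

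A poly(A) signal (AATAAA or ATTAAA) lay within the last 50 bases of an annotated transcript in 15 members. The windows below are those of the changed members that hold one, again on the strand of the gene, with the signal in capitals.
H2ac25, chr11:58956785-58956814, + strand: aggtatatgcccAATAAAataagagtacgt
H2bc21, chr3:96223705-96223734, + strand: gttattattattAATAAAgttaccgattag
H3c14, chr3:96248475-96248504, + strand: ttttttaatcccAATAAAaatttaacacac
H4c8, chr13:23531476-23531505, + strand: ccacattttcttATTAAAagagcgaacatg
In H2ac25 the transcript runs on for 1643 bases after the stem-loop, and in H3c14 for 1162 bases. In H4c8 it runs on for 46 bases.

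**Figure D1:**
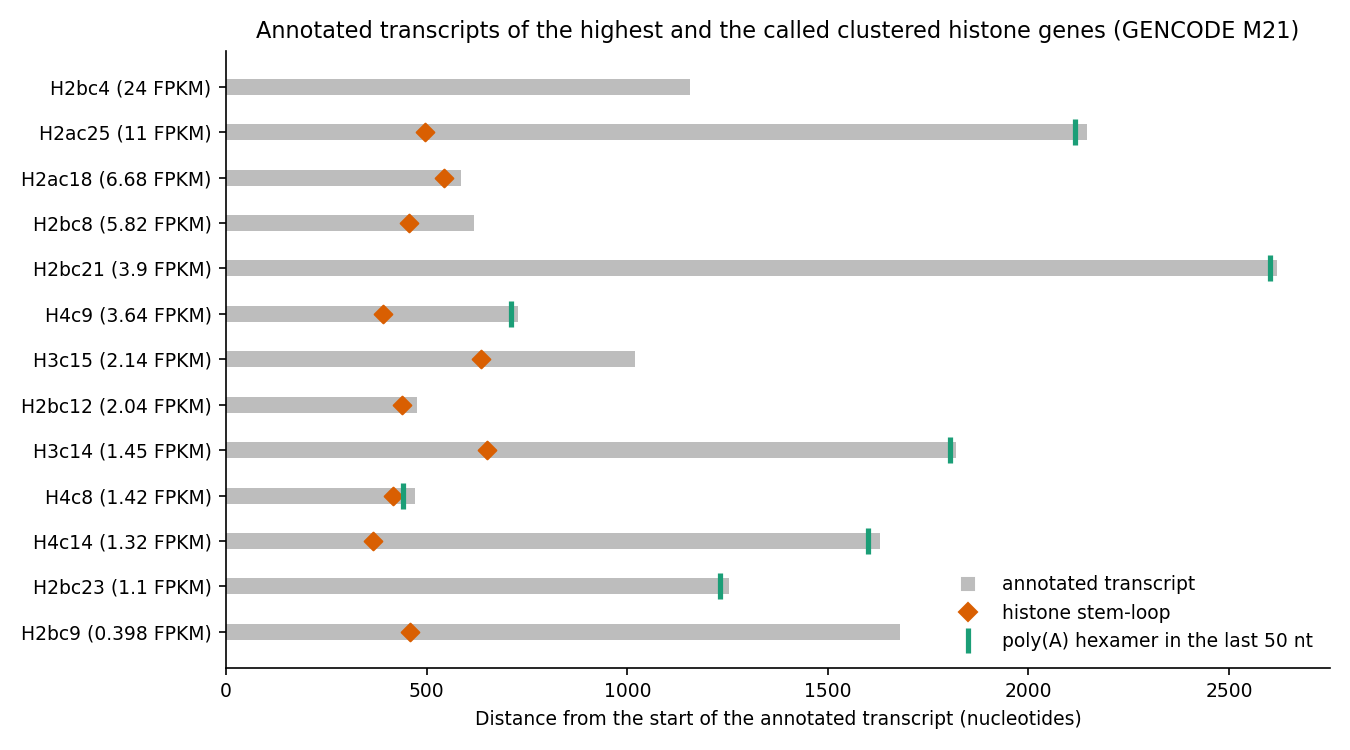
Annotated transcripts of the 12 members with the highest mean FPKM and of H2bc9, drawn as grey bars on a scale of nucleotides from the transcript start, with stem-loops as diamonds and poly(A) signals as vertical marks. The stem-loop lies at 488 bases in the 2146-base transcript of H2ac25, while no stem-loop letters were found in H2bc4, H2bc21 and H2bc23.

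Promoters from RefSeq (GRCm38.p6, 250 bases before to 50 after the start) were matched for 52 of the 61 members. H2bc4, H2ac25 and H2bc21, the members with the most counts, were not among those matched. The CCAAT box was found on either strand in 44 of the 52 (84.6%), against 37.4% of 32851 promoters in the table. TATAAA was found in 29 (55.8%), against 13.6% of all promoters. The octamer ATTTGCAT, known from H2B promoters, was found in 12 (23.1%, with 7 of 15 H2B and 5 of 37 other promoters), against 1.74% of all. TTTCGCGC, a form of the E2F site, was found in 9 (17.3%), against 0.323% of all. Promoter windows of neighbouring H2A and H2B genes on opposite strands can overlap, as for H2ac12 with H2bc12 and H2ac8 with H2bc8. A site in such a stretch counts for both genes, so the member counts and the split by H2B hold some sites more than once. The promoter of H2bc8, a member that was lower in ALI, holds 3 of these motifs and is shown on the + strand (GRCm38.p6, chr13:23571150-23571449) with the motifs in capitals.
H2bc8 promoter: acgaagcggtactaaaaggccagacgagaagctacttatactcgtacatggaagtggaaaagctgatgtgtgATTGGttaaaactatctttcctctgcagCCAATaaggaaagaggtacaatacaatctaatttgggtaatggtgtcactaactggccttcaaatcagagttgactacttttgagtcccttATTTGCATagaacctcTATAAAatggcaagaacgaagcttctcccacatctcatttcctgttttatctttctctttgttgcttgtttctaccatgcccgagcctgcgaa
Of the other members lower in ALI with a matched promoter, H2bc9, H3c14 and H3c15 hold only CCAAT of these motifs, and H4c8 holds none. A match is a description of the letters only.

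The levels were strongly uneven. FPKM, a read density scaled to transcript length and library size, was used as deposited and allows levels of different genes to be compared. H2bc4 averaged 23.99 FPKM over the 12 libraries and H2ac25 averaged 10.99 FPKM. These genes held 53.6% of all counts assigned to the members, and 64.3% with H2bc21. H2ac18 (6.68 FPKM), H2bc8 (5.82 FPKM), H2bc21 (3.9 FPKM) and H4c9 (3.64 FPKM) followed. H3c15 averaged 2.14 FPKM, H2bc12 2.04, H3c14 1.44, H4c8 1.42, H4c14 1.32 and H2bc23 1.1 FPKM. The median member averaged 0.196 FPKM, 14 members averaged at least 1 FPKM and 20 averaged under 0.1 FPKM.

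Members with long annotated transcripts took most of the reads. The 15 members with a transcript of at least 1000 bases held 82.2% of the member counts, and the 46 shorter ones held 17.8%. The 15 members with a poly(A) signal near the end held 53.2% of the counts. The 60 members other than H2bc4 held 71.1% of the counts, and H2bc4 itself has 2 annotated exons and neither element in its annotated transcript. Those shares describe where reads fell and do not separate tailed from tail-less molecules. A longer transcript also gives more reads at the same level, so they are not shares of molecules.

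Many members resemble another gene closely enough to make single values uncertain. A stretch of 75 bases was counted as shared when it also occurs in an annotated transcript of another gene. All such stretches of H2ac18 and H3c14 were shared, 96.1% of those of H2bc23, 62.6% of H3c15, 47.4% of H2bc8, 42.4% of H4c8, 30.6% of H2ac25, 27.1% of H2bc4 and 12.5% of H2bc9. H2bc21 and H4c14 shared none. H2ac25 starts at the same base as Trim17 on the same strand, and Trim17 was low, at 0.09 to 0.75 FPKM. How reads were divided among copies and overlapping genes is not given in the sources used here.

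Libraries held 53083002 to 70209229 counts, of which members took 0.00693% to 0.0133%. The lung markers on the list chosen for this check, such as surfactant and club cell genes, had counts in every library. Libraries differed within groups in heart and fat transcripts, with summed cardiac markers at 18.84 to 71.04 FPKM in tpMSC, 13.03 to 44.47 FPKM in MSC, 15.95 to 21.71 FPKM in ALI and 13.77 to 40.39 FPKM in Control. They also differed in other tail-less RNA, with 19 listed genes (7SK, 7SL, snoRNA and similar kinds) summing to 17.26, 34.2 and 6.39 FPKM in tpMSC, 70.6, 10.23 and 16.32 FPKM in MSC, 15.53, 89.01 and 52.05 FPKM in ALI, and 122.44, 15.77 and 49.68 FPKM in Control. Those groups overlap, 7 of the 19 passed the count filter, and none was called in any of the 6 comparisons. The part of these differences in the member levels was not tested.

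Summed over all 61 members, the clustered histone genes were lowest in ALI. The sums were 96.55, 90.34 and 73.8 FPKM in tpMSC, 71.59, 83.77 and 96.45 FPKM in MSC, 50.43, 60.81 and 56.64 FPKM in ALI, and 96.41, 75.6 and 79.62 FPKM in Control. Every ALI library lay below every library of the other groups, and those other groups overlapped each other. The means were 86.9 ± 11.8 FPKM in tpMSC, 83.94 ± 12.4 in MSC, 55.96 ± 5.22 in ALI and 83.88 ± 11 in Control (SD, n = 3 each). The log2 ratio of means was -0.58 for ALI over Control, 0.59 for MSC over ALI and 0.64 for tpMSC over ALI, and it was -0.59, 0.65 and 0.66 with H2bc4 left out. With H3c14 and H2ac18 left out, a choice made after seeing the data, it was -0.55, 0.42 and 0.61 for the same comparisons. In a whole tissue, fewer cells with these mRNAs and less of the mRNA per cell cannot be told apart.

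By family, H2A sums averaged 24.02 ± 2.75 FPKM in tpMSC, 25.52 ± 9.55 in MSC, 13.66 ± 0.878 in ALI and 21.42 ± 3.35 in Control. H2B sums averaged 47.07 ± 9.3 FPKM in tpMSC, 42.07 ± 2.36 in MSC, 32.2 ± 3.69 in ALI and 47.97 ± 5.1 in Control. Every ALI library was below every other library for both of these dimer partners. H3 sums averaged 6.07 ± 0.496 FPKM in tpMSC, 5.95 ± 2.55 in MSC, 2.64 ± 0.332 in ALI and 4.99 ± 2.12 in Control. Without H3c14, whose counts are set beside those of an overlapping gene further on, the H3 sums were 4.44 ± 0.17 FPKM in tpMSC, 3.39 ± 0.746 in MSC, 2.36 ± 0.367 in ALI and 3.68 ± 1.18 in Control, and MSC then overlapped ALI. For H4 the sums of the whole family were 9.74 ± 1.58 FPKM in tpMSC, 10.4 ± 2.79 in MSC, 7.46 ± 0.805 in ALI and 9.5 ± 1.45 in Control, and here ALI overlapped the other groups.

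The members were also summed by the elements found in their annotated transcripts, which are not measured mRNA ends. Members with a stem-loop and no poly(A) signal summed to 16.26 ± 1.81 FPKM in ALI and 24.29 ± 4.98 FPKM in Control. Members with both elements summed to 13.8 ± 1.97 FPKM in ALI and 22.19 ± 3.04 FPKM in Control. Members with the signal alone summed to 5.16 ± 0.355 FPKM in ALI and 6.92 ± 0.609 FPKM in Control. Those with neither summed to 20.74 ± 3.05 FPKM in ALI and 30.48 ± 3.09 FPKM in Control. In each of these 4 classes the 3 ALI libraries lay below the 3 Control libraries. The first class includes H2ac18, all of whose 75-base stretches are shared, and its separation rests on that gene. H2ac18 gave 3.61 of the 18.07 FPKM in ALI replicate 3 and 7.85 of the 22.21 FPKM in Control replicate 3. The last class consists mostly of H2bc4, and 14 of its 17 members have no annotated 3′ UTR to search. Without H2bc4 it summed to 2.81 ± 0.383 FPKM in ALI and 3.81 ± 1.02 FPKM in Control, and the groups overlapped.

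The comparison of ALI with Control asks what the injury changed. Of the 61 members, 36 passed the count filter, and the fit was made over all 22915 genes that passed. In ALI 8 members fell and none rose: H2ac25, H2bc21, H2bc4, H2bc8, H2bc9, H3c14, H3c15 and H4c8. That is 22.2% of the members tested, against a background of 39.8% of all genes called (19.6% lower and 20.2% higher). The share called lower was near the background and is no result about the members. The median log2 fold change was -0.59 over the members tested and -0.022 over all genes, and 24 of the 36 were negative. Near-identical copies count apart here. With such copies summed, a choice made after seeing the data, no summed group was called. The log2 fold change was 0.0106 for 6 H2B copies, -0.138 for 6 H2A copies and -0.731 for H2ac18 with H2ac19. It was 1.22 for H2ac11, H2ac23 and H2ac24 together, 0.766 for H3c10 with H3c11 and 0.466 for H3c6 with H3c7. For H4c17 with H4c18 it was 0.0183, and for H4c1 with H4c12 it was -0.217. The 3 ALI libraries lay below the 3 Control libraries for 15 members (41.7%, against 28.5% of all genes) and above them for 1 (2.78%, against 27.5%). The 25 members that were not tested had at most 84 counts each over the 12 libraries and held 1.04% of member counts. Their summed counts were 59, 71 and 76 in ALI against 74, 48 and 61 in Control.

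H2ac25, an H2A gene of the chromosome 11 cluster (ENSMUSG00000078851, GRCm38 chromosome 11, 58954685 to 58956830), had 7.04, 7.65 and 6.1 FPKM in ALI, against 13.88, 10.66 and 12.85 FPKM in Control. All ALI values were below all Control values. Its log2 fold change was -0.78 ± 0.14 (SE, adjusted p = 0.000895), and the call held under all alternatives tried. The stem-loop and the poly(A) signal of this gene are the first of the windows above.

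The H2B genes that fell were 4. H2bc21 (ENSMUSG00000068854, chromosome 3, 96221119 to 96223738), which shares no 75-base stretch with another gene, had 3.08, 3.04 and 2.54 FPKM in ALI, against 5.01, 4.53 and 5.44 FPKM in Control. Its log2 fold change was -0.73 ± 0.14 (SE, adjusted p = 0.00127), and this call too held under all alternatives. H2bc4 (ENSMUSG00000018102, chromosome 13, 23684199 to 23692908), the highest member, had 14.92, 20.02 and 18.85 FPKM in ALI, against 28.93, 26.55 and 24.53 FPKM in Control. The groups did not overlap for either gene, and the log2 fold change of H2bc4 was -0.51 ± 0.15 (SE, adjusted p = 0.019), a call lost without Control replicate 1 or ALI replicate 1.

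H2bc8 (ENSMUSG00000058385, chromosome 13, 23571396 to 23572013) had 3.39, 4.53 and 4.6 FPKM in ALI, against 8.97, 5.94 and 5.8 FPKM in Control. Control replicate 1 stood well above the other libraries, but the groups did not overlap without it. The log2 fold change was -0.66 ± 0.21 (SE, adjusted p = 0.024), and the call was lost without Control replicate 1 or ALI replicate 1. H2bc9 (ENSMUSG00000114456, chromosome 13, 23541714 to 23543392) was low, at 0.34, 0.2 and 0.18 FPKM in ALI, against 0.52, 0.39 and 0.56 FPKM in Control. Its log2 fold change was -0.96 ± 0.34 (SE, adjusted p = 0.0397), from 20 to 41 counts per ALI library. The call was lost in 7 of the alternatives, among them those without Control replicate 1 or 3 or ALI replicate 2 or 3.

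Among H3 genes, H3c15 (ENSMUSG00000081058, chromosome 3, 96238108 to 96239127) had 1.17, 1.6 and 1.28 FPKM in ALI, against 2.86, 2.11 and 2.05 FPKM in Control. The groups did not overlap, and the log2 fold change was -0.72 ± 0.24 (SE, adjusted p = 0.0305). That call was lost without Control replicate 1, ALI replicate 1 or ALI replicate 3, and with a replicate block. H3c14 (ENSMUSG00000093769, chromosome 3, 96246685 to 96248509) had 0.24, 0.25 and 0.33 FPKM in ALI, against 2.41, 0.53 and 0.98 FPKM in Control. Control spread over a wide range while ALI was narrow, and the log2 fold change was -2.16 ± 0.68 (SE, adjusted p = 0.0243). The call was lost in 8 of the 16 alternatives. Among these were both limma fits on FPKM and those without Control replicate 1 or any 1 of the ALI libraries. The value of H3c14 depends on an overlapping gene, as set out further on.

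Among H4 genes, H4c8 (ENSMUSG00000060981, chromosome 13, 23531050 to 23531519) had 0.88, 0.97 and 0.4 FPKM in ALI, against 1.64, 1.81 and 2.1 FPKM in Control. The groups did not overlap, and the log2 fold change was -1.22 ± 0.37 (SE, adjusted p = 0.0191), from 14 to 30 counts per ALI library. That call was lost without Control replicate 3 or ALI replicate 3. H4c9, the H4 gene with the highest level, did not pass the test. It had 2.94, 4.19 and 2.92 FPKM in ALI, against 2.85, 3.09 and 2.85 FPKM in Control (log2 fold change 0.25 ± 0.27 SE, adjusted p = 0.49). H2bc12 (log2 fold change -0.36, adjusted p = 0.35), H4c14 (-0.48, 0.399), H2ac18 (-0.71, 0.415) and H2bc23 (0.19, 0.499) also did not pass.

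**Figure D2:**
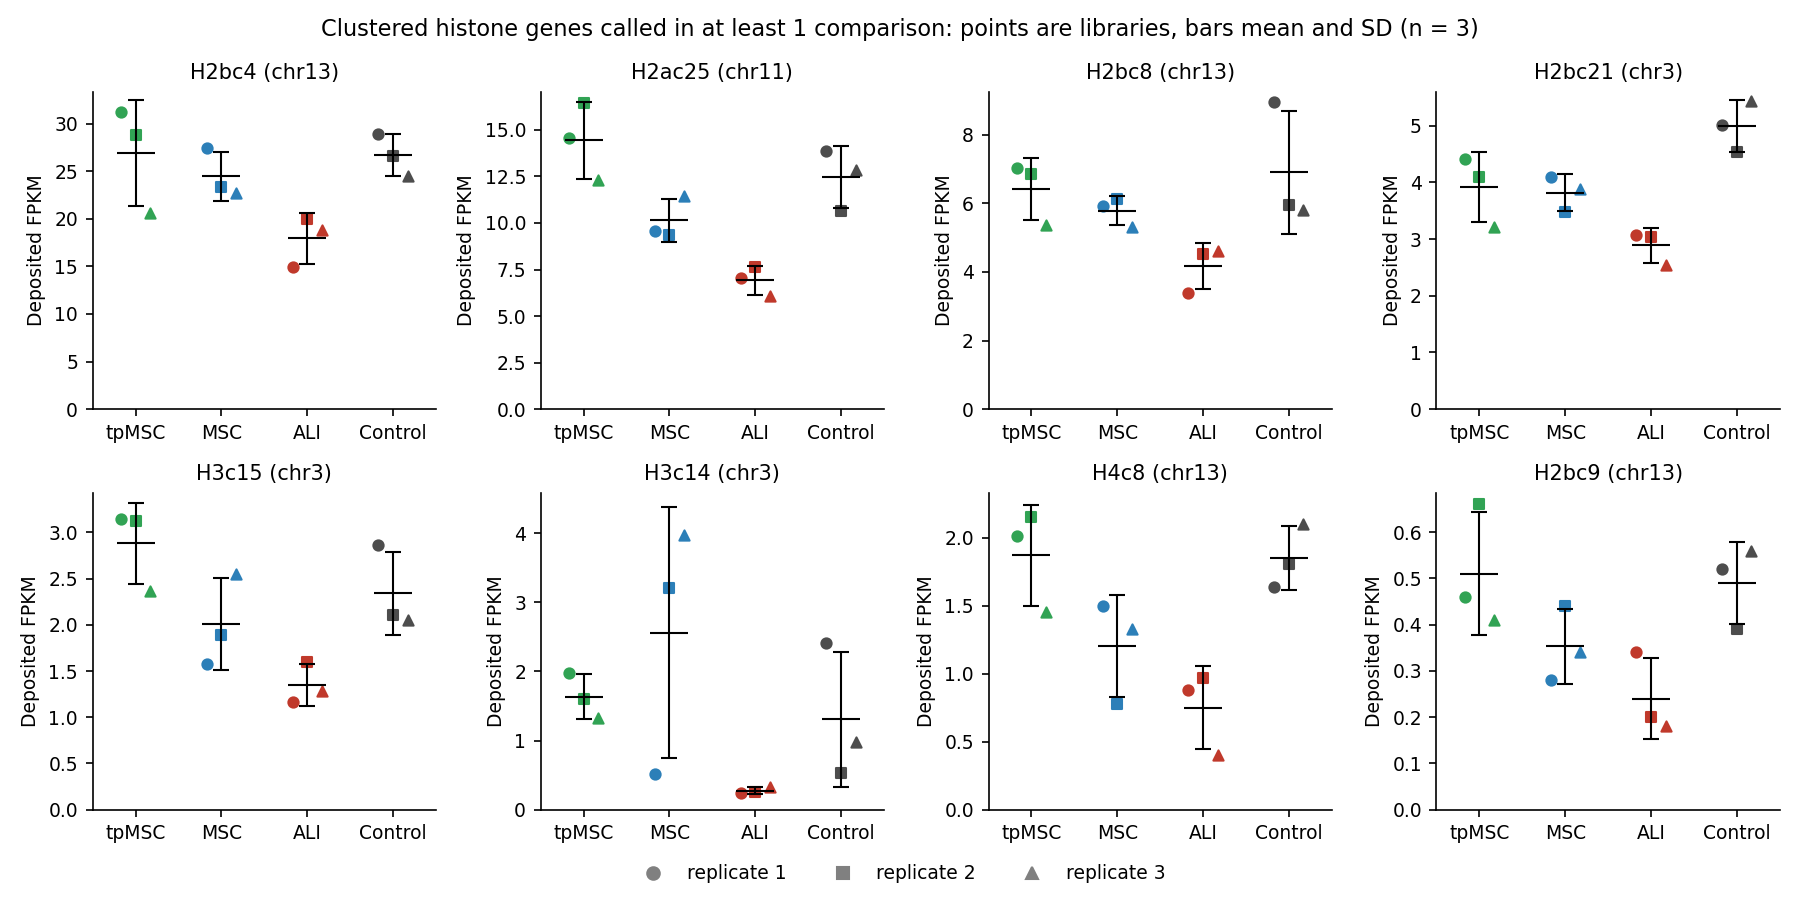
Deposited FPKM of the 8 members called in at least 1 comparison, by group from tpMSC and MSC to ALI and Control, with each library as a point and the mean and SD as bars (n = 3). The 3 ALI libraries lie below the 3 Control libraries in all 8 panels, and H3c14 spreads most within MSC, from 0.51 to 3.97 FPKM.

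Calls lay mostly on members with long transcripts, with 6 of the 13 tested members of at least 1000 bases lower in ALI and 2 of the 23 shorter ones. Their median log2 fold changes were -0.72 and -0.36. Long members also held most of the member counts, and more counts make a call easier. Among the 6 is H3c14, whose call depends on an overlapping gene. By family 1 of 8 H2A, 4 of 13 H2B, 2 of 5 H3 and 1 of 10 H4 genes were lower. By chromosome the counts were 4 of 28 on chromosome 13, 3 of 6 on chromosome 3 and 1 of 2 on chromosome 11. All of these counts stand beside 19.6% of all genes called lower, and the divisions were not tested. The count moved with single libraries. Without Control replicate 1 there were 3 members called, H2ac25, H2bc21 and H4c8, and without ALI replicate 1 or ALI replicate 3 there were 5. Such a fit has 2 libraries in a group, and the share of all genes it called was not set beside these counts.

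**Figure D3:**
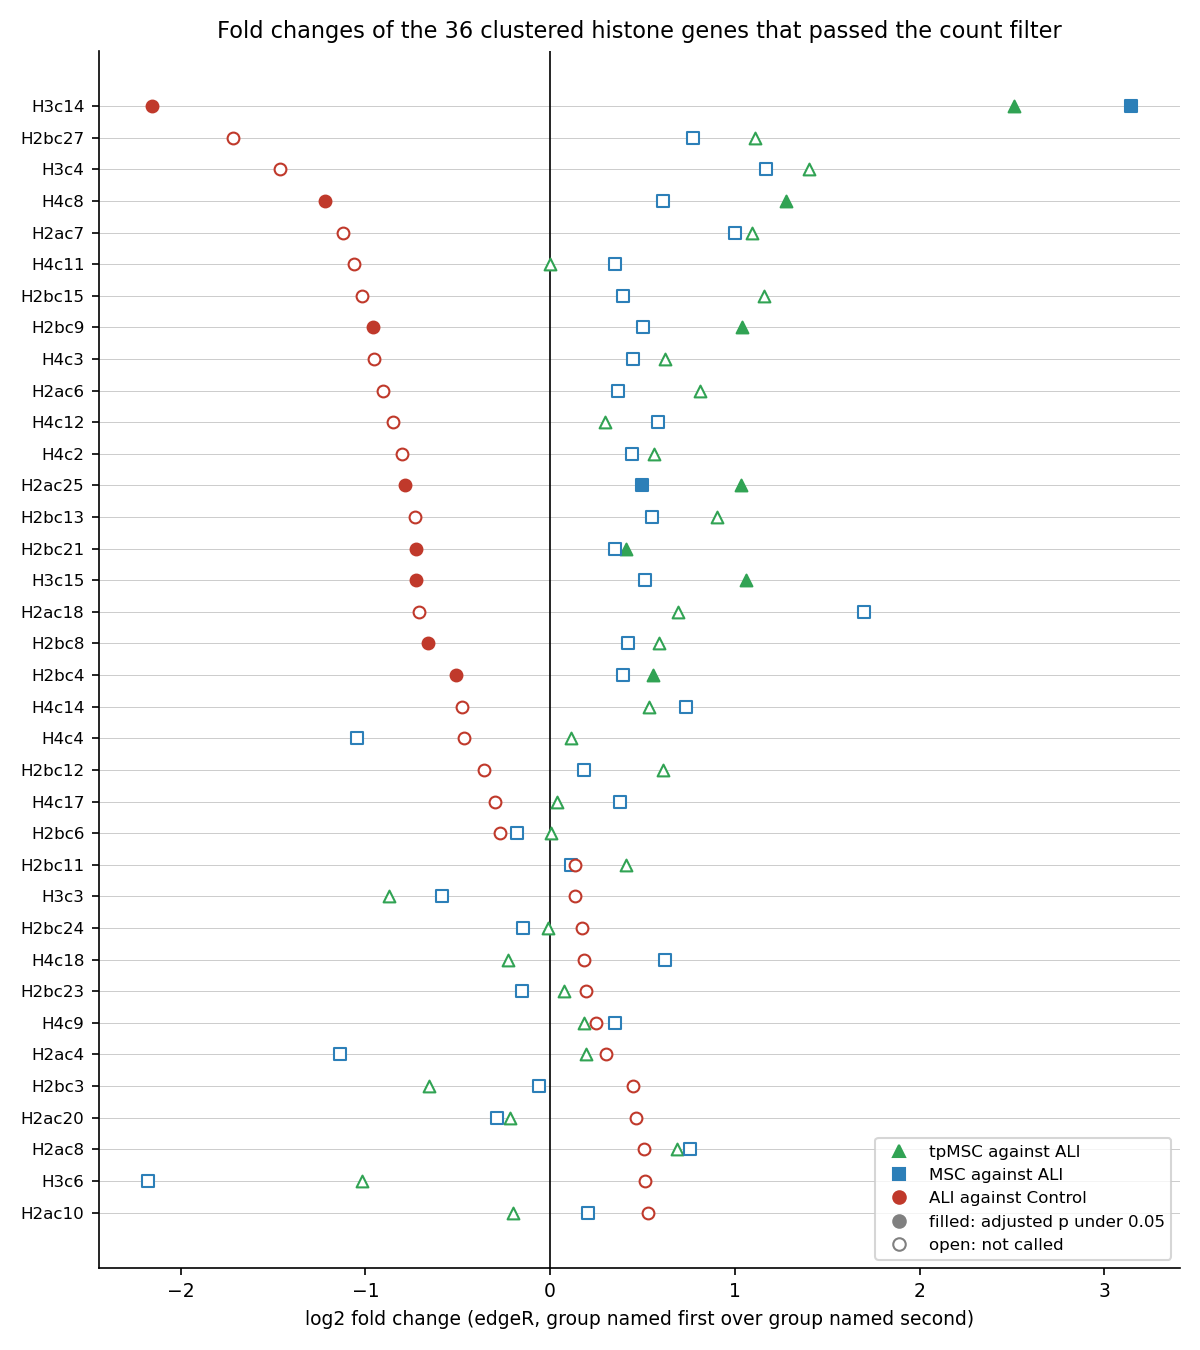
Log2 fold change from edgeR of the 36 members that passed the count filter, 1 gene per line, with tpMSC against ALI as triangles, MSC against ALI as squares and ALI against Control as circles, filled where adjusted p is under 0.05. Filled circles all lie left of 0 (8 members) and filled triangles and squares all lie right of 0 (7 and 2 members), where the comparisons share the ALI libraries.

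H3c14 is contained in a longer gene, and its share of the counts of the pair differed between libraries. H3c14 lies within Gm20634 (ENSMUSG00000070392, chromosome 3, 96245554 to 96248509), both on the + strand with the same end, so no read of H3c14 is distinct from Gm20634. H3c14 had 254, 210 and 187 counts in tpMSC, 66, 428 and 557 in MSC, 32, 28 and 43 in ALI, and 310, 74 and 134 in Control. Gm20634 had 1209, 1699 and 1013 counts in tpMSC, 974, 286 and 409 in MSC, 989, 833 and 1059 in ALI, and 1010, 1262 and 933 in Control. H3c14 thus took 59.9% and 57.7% of the summed counts in MSC replicates 2 and 3, and 3.13% to 23.5% in the other 10 libraries. The 2 libraries with the most H3c14 counts were the 2 with the fewest Gm20634 counts. Whether reads were assigned differently or a transcript changed was not tested.

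With the counts of both genes added, H3c14 lost its calls. The summed counts gave a log2 fold change of -0.13 ± 0.19 for ALI against Control (SE, adjusted p = 0.648), -0.31 ± 0.19 for MSC against ALI (adjusted p = 0.368) and 0.47 ± 0.19 for tpMSC against ALI (adjusted p = 0.102). The sign for MSC against ALI turned. H2ac18, the H2A gene next to it (ENSMUSG00000064220, chromosome 3, 96245497 to 96246082), overlaps Gm20634 on the same strand and Gm20633 on the opposite strand. It had 324, 68 and 342 counts in tpMSC, 110, 523 and 898 in MSC, 131, 126 and 148 in ALI, and 245, 177 and 342 in Control. In MSC, H2ac18 was high in the same replicates 2 and 3 as H3c14.

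Added over H3c14, H2ac18 and Gm20634, the locus had 1787, 1977 and 1542 counts in tpMSC, 1150, 1237 and 1864 in MSC, 1152, 987 and 1250 in ALI, and 1565, 1513 and 1409 in Control. On that sum tpMSC was above ALI (log2 fold change 0.5 ± 0.16 SE, adjusted p = 0.0381). MSC against ALI (0.14 ± 0.16, adjusted p = 0.648) and ALI against Control (-0.21 ± 0.16, adjusted p = 0.316) did not pass. Both sums were chosen after seeing the data.

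**Figure D4:**
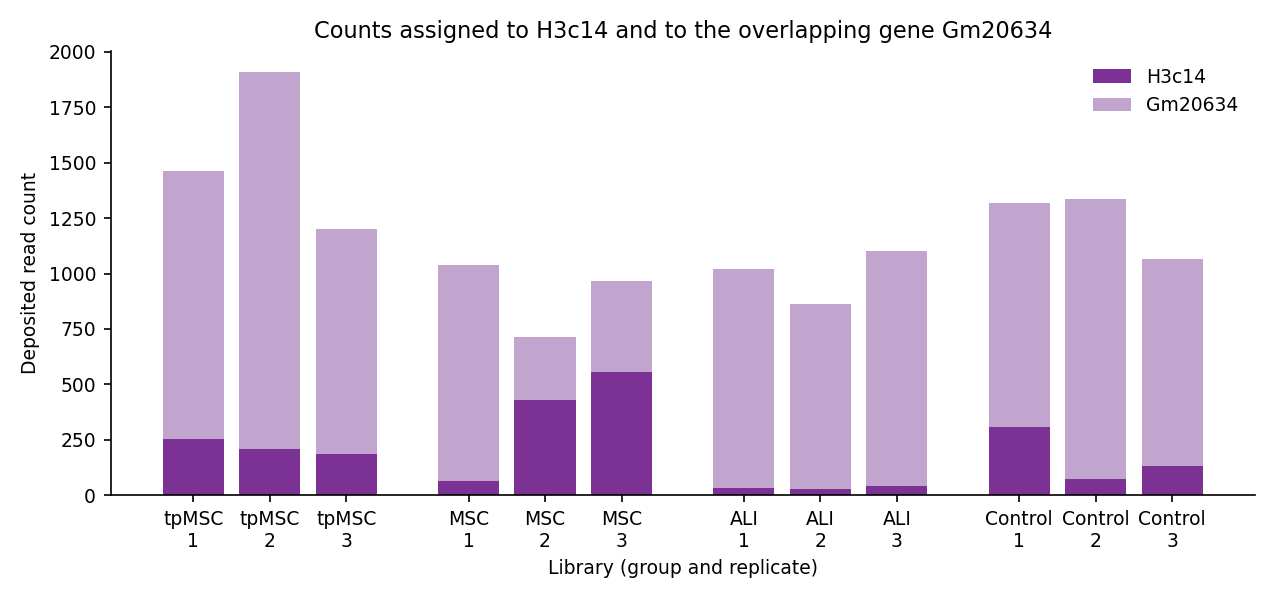
Deposited counts of Gm20634 (light) stacked on those of H3c14 (dark) in each of the 12 libraries, by group and replicate. H3c14 holds 428 of 714 counts in MSC replicate 2 and 557 of 966 in MSC replicate 3, and between 28 and 310 counts elsewhere.

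The comparison of MSC with ALI asks how injured lungs differed after MSC. Of the 36 members, 2 were higher in MSC and none lower, H2ac25 and H3c14, which is 5.56% against a background of 5.03% of genes called higher and 5.21% called lower (10.2% in either direction). A share so near the background is no result about the members. H2ac25 had 9.57, 9.37 and 11.46 FPKM in MSC, against 7.04, 7.65 and 6.1 FPKM in ALI. The groups did not overlap (log2 fold change 0.5 ± 0.14 SE, adjusted p = 0.0429), but the call was lost in 7 of the alternatives, among them those without ALI replicate 1 or 3 or MSC replicate 1 or 3. H3c14 had 0.51, 3.21 and 3.97 FPKM in MSC, against 0.24, 0.25 and 0.33 FPKM in ALI (log2 fold change 3.14 ± 0.69 SE, adjusted p = 0.0152), and its sign turned when Gm20634 was added. The call of H3c14 was lost in 5 other alternatives, among them limma on log2(FPKM + 1) and those without any 1 of the ALI libraries.

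The other members moved less clearly between MSC and ALI. Over the 36 members tested, H2ac25 and H3c14 included, the 3 MSC libraries lay above the 3 ALI libraries for 6 (16.7%, against 13.6% of all genes) and below them for none (against 13.4%). The median log2 fold change was 0.39 over the members tested and 0.018 over all genes, with 27 of 36 positive. With near-identical copies summed, no summed group was called. The largest groups, of 6 H2B and 6 H2A copies, were at -0.0355 and 0.307. H2bc4 had 27.39, 23.3 and 22.69 FPKM in MSC, against 14.92, 20.02 and 18.85 FPKM in ALI (log2 fold change 0.40, adjusted p = 0.128). H2bc21 had 4.1, 3.47 and 3.89 FPKM in MSC, against 3.08, 3.04 and 2.54 FPKM in ALI (0.35, adjusted p = 0.13). Without ALI replicate 1 or ALI replicate 3 no member was called, and without ALI replicate 2 or MSC replicate 3 there was 1.

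The comparison of tpMSC with ALI asks the same for tpMSC. In tpMSC 7 members rose and none fell: H2ac25, H2bc21, H2bc4, H2bc9, H3c14, H3c15 and H4c8. They were 19.4% of the members tested, against a background of 11.6% of genes called higher and 11.5% called lower (23.1% in either direction). The 3 tpMSC libraries lay above the 3 ALI libraries for 13 members (36.1%, against 20.1% of all genes) and below them for 1 (2.78%, against 20.3%). The median log2 fold change was 0.55 over the members tested and 0.01 over all genes, and 29 of 36 were positive. Summing near-identical copies left no summed group called, with 6 H2B copies at 0.227 and 6 H2A copies at 0.444.

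H2ac25 had 14.57, 16.44 and 12.29 FPKM in tpMSC, against 7.04, 7.65 and 6.1 FPKM in ALI. The groups lay far apart (log2 fold change 1.03 ± 0.14 SE, adjusted p = 0.000449), and the call held under all alternatives tried. H3c15 had 3.15, 3.12 and 2.37 FPKM in tpMSC, against 1.17, 1.6 and 1.28 FPKM in ALI (log2 fold change 1.06 ± 0.24 SE, adjusted p = 0.00816), also with its call in all alternatives. None of these added the counts of Gm20634, with which H3c15 shares 62.6% of its 75-base stretches. H2bc4 had 31.2, 28.85 and 20.63 FPKM in tpMSC, against 14.92, 20.02 and 18.85 FPKM in ALI. Its groups were separated only narrowly, by tpMSC replicate 3 (log2 fold change 0.56 ± 0.15 SE, adjusted p = 0.0214).

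H4c8 had 2.01, 2.15 and 1.45 FPKM in tpMSC, against 0.88, 0.97 and 0.4 FPKM in ALI (log2 fold change 1.27 ± 0.37 SE, adjusted p = 0.0264). H2bc9 had 0.46, 0.66 and 0.41 FPKM in tpMSC, against 0.34, 0.2 and 0.18 FPKM in ALI (log2 fold change 1.04 ± 0.34 SE, adjusted p = 0.0442). The groups did not overlap for H4c8 and H2bc9. H2bc21 had 4.41, 4.1 and 3.22 FPKM in tpMSC, against 3.08, 3.04 and 2.54 FPKM in ALI (log2 fold change 0.41 ± 0.14 SE, adjusted p = 0.0483), and its call was lost in 9 of the alternatives. H3c14 had 1.98, 1.6 and 1.33 FPKM in tpMSC, against 0.24, 0.25 and 0.33 FPKM in ALI (log2 fold change 2.51 ± 0.68 SE, adjusted p = 0.0206), a call lost when Gm20634 was added. With limma on log2(FPKM + 1) the call of H3c14 was lost too. Without tpMSC replicate 1 the count was 2 (H2ac25 and H3c15). Without tpMSC replicate 2 or ALI replicate 3 it was 3, and without ALI replicate 1 or ALI replicate 2 it was 4. Without tpMSC replicate 1 or 2, the calls of H2bc21, H2bc4, H2bc9 and H4c8 were lost. Leaving out ALI replicate 1 ended the calls of H2bc21, H2bc4, H3c14 and H4c8. Leaving out ALI replicate 2 ended those of H2bc21, H2bc9 and H3c14. Leaving out ALI replicate 3 ended those of H2bc21, H2bc9, H3c14 and H4c8.

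H2bc8, the only one of the 8 members lower in ALI that was not called higher in tpMSC, had 7.03, 6.86 and 5.37 FPKM in tpMSC, against 3.39, 4.53 and 4.6 FPKM in ALI. Its groups did not overlap either. Its log2 fold change was 0.59 ± 0.21 (SE, adjusted p = 0.06). The ALI libraries enter both comparisons, so the fold changes are only set side by side.

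Between tpMSC and MSC no member was called by edgeR, against a background of 0.0305% of genes (0.0175% higher and 0.0131% lower), with 2 members at an unadjusted p under 0.05 and 1 called higher by DESeq2. The median log2 fold change was 0.17 over the members tested. H2ac25 had 14.57, 16.44 and 12.29 FPKM in tpMSC, against 9.57, 9.37 and 11.46 FPKM in MSC, so the groups did not overlap while the test did not pass. The groups did not overlap for 2 members higher in tpMSC (5.56%, against 7.16% of all genes) and for none lower (against 7.05%).

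Against Control, no member was called by edgeR in tpMSC, against a background of 15.9% of genes (9.1% higher and 6.79% lower), with 1 at an unadjusted p under 0.05 and 0 called by DESeq2. None was called in MSC either, against a background of 18.7% (10.7% higher and 8% lower), with 2 at an unadjusted p under 0.05 and 1 called lower by DESeq2. In tpMSC 2 members lay wholly above Control (5.56%, against 19.9% of all genes) and 1 wholly below (2.78%, against 19.4%). In MSC 2 lay wholly above (against 19.2%) and 3 wholly below (8.33%, against 19.4%). The median log2 fold change was 0.01 for tpMSC and -0.23 for MSC. H2bc21 was below Control in all libraries, at 4.41, 4.1 and 3.22 FPKM in tpMSC and 4.1, 3.47 and 3.89 FPKM in MSC, against 5.01, 4.53 and 5.44 FPKM in Control. A missing call does not show that levels were equal.

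The replication-dependent linker histones, H1 genes that share the stem-loop mRNA and lie in the chromosome 13 cluster, were lower in ALI in 3 of 3 tested of 5 listed. Of all genes 19.6% were called lower there. H1f2, the highest of them, had 14.39, 16.39 and 14.05 FPKM in ALI, against 27.54, 23.97 and 21.96 FPKM in Control (log2 fold change -0.65, adjusted p = 0.0233). H1f4 (-1.26, adjusted p = 0.0128) and H1f3 (-1.78, adjusted p = 0.0165) were at or below 0.83 FPKM in every library. In tpMSC H1f2 rose relative to ALI, with 28.72, 29.32 and 16.5 FPKM in tpMSC (log2 fold change 0.71, adjusted p = 0.0268), and none of the 3 was called in MSC against ALI.

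Replacement histones and other variants, most of which are made throughout the cell cycle from polyadenylated mRNAs, divided in ALI into 3 higher and 3 lower of 11. Of all genes 20.2% were called higher and 19.6% lower, so this split is no result about the list. H2az1 (log2 fold change 1.2, adjusted p = 5.28e-05), an H2A variant found at promoters, and H2ax (0.97, adjusted p = 7.82e-05), the variant phosphorylated at DNA breaks, rose. H2ax is known to give a stem-loop mRNA as well as a polyadenylated one. H2az2 (-0.88, adjusted p = 8.21e-05) and H1f0 (-0.83, adjusted p = 0.00174), a linker histone of non-dividing cells, fell. H2az1 had 144.55, 167.25 and 128.54 FPKM in ALI, against 61.88, 68.06 and 69.99 FPKM in Control, far above any clustered member.

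Of 20 histone mRNA processing genes 9 rose in ALI and 1 fell, where 20.2% of all genes were called higher and 19.6% lower. The smallest p was that of Slbp, which binds the stem-loop (8.65, 8.26 and 9.26 FPKM in ALI, against 6.21, 5.74 and 6.12 FPKM in Control; log2 fold change 0.59, adjusted p = 0.000111). Cpsf2, a subunit of the cleavage complex (0.55), Eri1, an exonuclease that trims histone mRNA ends (0.5), and Tut7, a uridylyl transferase (0.46), were next. Of 15 histone chaperone genes 7 rose and none fell, with Nasp (0.78), Asf1b (1.54), Hat1 (0.6) and Mms22l (1.33) leading by p.

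DNA replication genes rose in ALI while the clustered histone genes did not. Of 28 listed, 24 rose and none fell (median log2 fold change 0.89), against the 20.2% of all genes called higher. Mcm10, a replication initiation factor (2.08), Tk1, a thymidine kinase (1.1), Fen1, a flap nuclease (1.09), and Rrm2, a ribonucleotide reductase subunit (1.83), had the smallest p. All 20 genes of G2 and mitosis rose (median 1.65), led by Mki67 (2.22), Kif11 (1.93), Top2a (2.01) and Aurkb (1.74). Summed replication genes were at 167.43, 175.83 and 181.41 FPKM in ALI, against 98.05, 111.07 and 118.33 FPKM in Control.

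In the treated groups the same lists moved little relative to ALI. Neither replication nor mitosis genes had any call in MSC against ALI (medians -0.26 and -0.1), and in tpMSC against ALI 2 replication genes fell (medians -0.23 and -0.26). Against Control, mitosis genes were called higher in 20 of 20 cases in tpMSC and in 20 of 20 in MSC, where 9.1% and 10.7% of all genes were. Clustered histone genes had no call in these comparisons with Control. Histone mRNA processing genes had 1 higher and 6 lower in tpMSC against ALI and none called in MSC against ALI. Of all genes 11.6% were called higher and 11.5% lower in tpMSC against ALI, and 10.2% in either direction in MSC against ALI. These list differences were read only as counts, and the difference between lists was not tested.

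**Figure D5:**
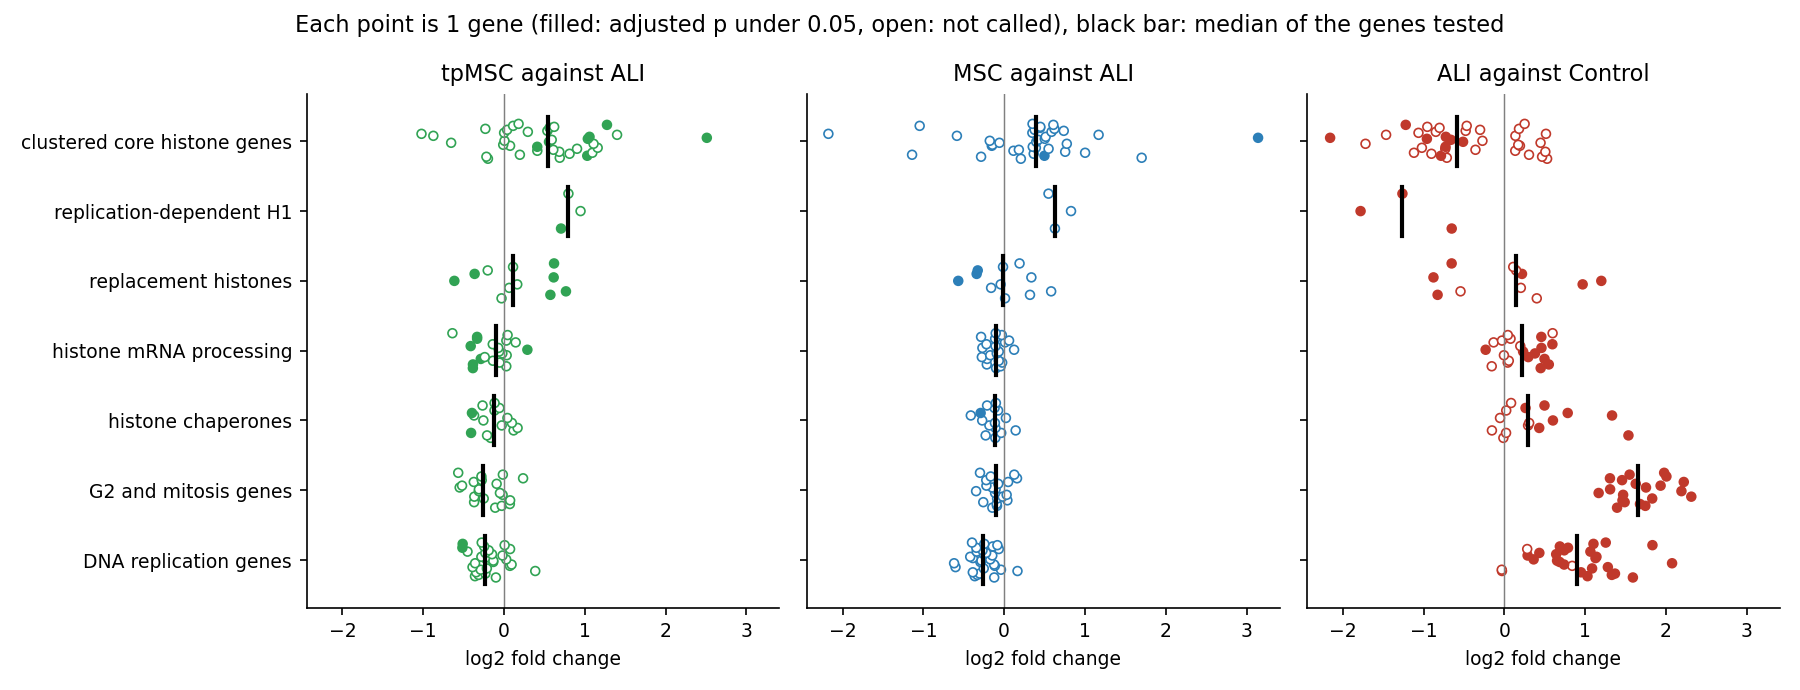
Log2 fold change of each tested gene of 7 lists in tpMSC against ALI, MSC against ALI and ALI against Control, filled where adjusted p is under 0.05, with the list median as a black bar. In ALI against Control the median is -0.59 for the clustered core histone genes, -1.26 for replication-dependent H1, 0.89 for DNA replication and 1.65 for G2 and mitosis.

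Markers of several cell types also differed between ALI and Control, where 20.2% of all genes were called higher and 19.6% lower. All 10 neutrophil markers rose, with sums of 5912.84, 6411.5 and 5532.09 FPKM in ALI, against 261.23, 196.26 and 172.21 FPKM in Control. Of 10 erythroid markers 9 fell, with sums of 3178.16, 2666.61 and 2760.24 FPKM in ALI, against 15145.12, 7708.02 and 9927.74 FPKM in Control. Of 10 lung structural markers 8 fell and 2 rose, with sums of 13420.44 to 16458.69 FPKM in ALI and 31020.6 to 38184.8 FPKM in Control. Of 10 lymphocyte markers 2 fell. In tpMSC against ALI 10 neutrophil markers fell, 8 structural markers rose and 1 fell, 5 lymphocyte markers fell and 1 erythroid marker rose. Of all genes 11.6% were called higher there and 11.5% lower. In MSC against ALI 10 neutrophil markers fell, 2 structural markers rose and no erythroid marker was called. The shares of all genes were 5.03% higher and 5.21% lower. Against Control, 7 erythroid markers were lower and none higher in each treated group (medians -1.38 in tpMSC and -1.31 in MSC). Each of these lists had counts for all its markers in every library, except 1 erythroid marker at 0 in ALI replicate 2. Their part in the histone levels was not tested.

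The genes outside the rule whose log2 CPM followed the summed members most closely over the 12 libraries were Igip (Pearson r = 0.958), Zfp219 (0.956), Tmem44 (0.954), Zdhhc2 (0.952) and Mettl25b (0.952). These values describe 12 libraries that share group structure and normalization, and they were picked as the highest of all genes tested.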

How the data were processed

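Per the file headers, the authors deposited 1 table that holds, for each gene and library, the read count and the FPKM. The submitters' processing notes name StringTie 1.3.4d, HISAT2 2.0.4 and cutadapt 1.9, besides edgeR and DESeq2, and the GRCm38 build. Which program counted reads, whether it used strand, and which annotation it read is not given in the sources used here. None of the 61 members has the same position in the table as in GRCm38, so printed positions are those of GENCODE M21, matched by Ensembl ID.

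Low genes were removed by filterByExpr and libraries scaled by TMM, before the quasi-likelihood test of edgeR 4.0.16 (R 4.3.3) was run with 1 mean per group over 12 libraries. A gene was called at a Benjamini-Hochberg adjusted p under 0.05 over 22915 genes. The median biological coefficient of variation was 0.184, and the median log2 fold change of all genes stayed within 0.022 of 0. The fit was tested on simulated data. Alternatives were relative log expression scaling, DESeq2 1.42.0, no filter, limma 3.58.1 on log2(FPKM + 0.1) and log2(FPKM + 1), only the groups compared, a replicate block and leaving out each library. Chosen after seeing the data were sums of near-identical copies and of overlapping genes, and sums without H3c14, H2ac18 or H2bc4 in a class.

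Replicates of a group differed beyond counting noise (chi-square per degree of freedom 20.6 to 136). Equal replicate numbers showed no pairing.

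The members, the gene lists and the tests were chosen with earlier results of these data known. Genes named are the 12 members with the highest FPKM, called members, up to 4 genes per list with the smallest p in ALI against Control and the 5 genes most like the summed members. Genes named outside this rule were chosen after their values were seen.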

Additional observations from a re-analysis of the deposited data

How the results depend on the processing

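Leaving out 1 library moved the number of members called from 8 to between 3 and 8 in ALI against Control, from 2 to between 0 and 2 in MSC against ALI, from 7 to between 2 and 10 in tpMSC against ALI, and from 0 to between 0 and 1 in MSC against Control. The 1 in MSC against Control came without MSC replicate 1. In the other settings the counts ran from 7 to 12, from 1 to 2, from 3 to 10 and from 0 to 1 for the same comparisons. MSC against ALI had 1 call with no filter on low counts, with limma on log2(FPKM + 1), with only the 2 groups compared, and with either sum over the overlapping genes. With the replicate block it also had 1. For tpMSC against ALI, only the 2 groups compared gave 3. DESeq2 gave 1 call in tpMSC against MSC and 1 in MSC against Control, where edgeR gave 0. In ALI against Control, MSC against ALI and tpMSC against ALI no setting called a member in the opposite direction. The log2 fold change of H3c14 in MSC against ALI turned to -0.31 with Gm20634 added. The cause of these changes was not tested. The replicate block changed no other count by over 1.5 times, but it ended the calls of H3c15 (adjusted p = 0.0505) and H2bc9 (0.059) in ALI against Control, H2ac25 (0.0685) in MSC against ALI, and H2bc21 (0.0594) and H2bc9 (0.0715) in tpMSC against ALI; same-numbered libraries correlated at -0.108 to 0.104, and 4 of 12 correlated best with their own number. The calls of H2ac25 and H2bc21 in ALI against Control, and of H2ac25 and H3c15 in tpMSC against ALI, held in every setting. No setting added Gm20634 to H3c15, which shares 62.6% of its 75-base stretches with it, nor Trim17 to H2ac25.

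Of the members, 25 had too few counts to test. Selection by poly(A) means that mRNAs ending at the stem-loop are captured to an extent that was not measured.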
